A study of Homo sapiens with 20 samples.

Results

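The response to TGFβ was compared between Panc1, a human pancreatic ductal carcinoma line, and A549, a human lung adenocarcinoma line. For each gene the log2 fold change with TGFβ in Panc1 minus that in A549 was taken over 10 of the 20 libraries of the series, those of the control siRNA (siCont) and of TGFβ in both lines. Panc1 had 3 libraries in each of its groups and A549 had 2, and the labels letter them A, B and C. TGFβ was given at 5 ng/ml for 72 hours, and the titles of the TGFβ libraries name no siRNA. The other 10 libraries carried an siRNA against KLF10 (siKLF10), with or without TGFβ, and served here for starting levels and for a second measurement of the same contrast. KLF10 averaged 80.9 CPM (counts scaled to each library's gene total) in the Panc1 libraries labelled siKLF10, against 134.9 CPM in siCont, but 106.9 CPM in those of A549 against 110.5 CPM, so the A549 level hardly differed from the control. With TGFβ the KLF10 means were 101.7 against 194.0 CPM in Panc1 and 146.3 against 174.4 CPM in A549, and the libraries of each siRNA were scaled on their own. The labels tag every sample of both lines as immortalized with SV40 large T antigen, although both are carcinoma lines. Each line is 1 tumour's descendants in culture, so a difference between the lines is a difference between those lines and not between pancreas and lung. Whether a group's libraries are separate cultures is not in the labels, and p-values therefore measure only how far these libraries spread, which can be technical.

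TGFβ ligands bind a pair of receptor kinases, TGFBR2 and TGFBR1, which phosphorylate SMAD2 and SMAD3; these enter the nucleus with SMAD4 and act with other transcription factors already active in the cell. The transcripts induced include feedback inhibitors such as SMAD7 and PMEPA1, matrix proteins, and the transcription factors SNAI1, SNAI2 and ZEB1, which repress epithelial genes during the epithelial-to-mesenchymal transition. Which genes respond is known to vary between cell types.

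Of 23368 genes in the tables, 14716 had enough counts to be tested, and 11824 of these were expressed in both lines, meaning a mean of at least 1 CPM, scaled by TMM, over a line's siCont and TGFβ libraries. Panc1 libraries held 12683185 to 15063736 gene counts and A549 libraries 6846761 to 13459688. Reads that the counting matched to no annotated gene made up 33.6 to 36.9% in Panc1 and 59.2 to 59.9% in A549. Defining markers of the labelled tissues were at or near 0 in both lines, including the lung surfactant genes SFTPB and SFTPA1 and the pancreatic genes PTF1A, CPA1 and PRSS1, while SOX9, a factor of pancreatic ducts, measured 235, 242 and 224 CPM in Panc1 siCont and 39.0 and 38.3 CPM in A549 siCont. SFTPD, another surfactant gene, measured 6.07 and 7.47 CPM in A549 siCont and 0 in Panc1. The haematopoietic gene PTPRC did not exceed 0.267 CPM in any of the 10 libraries. The library Panc1 siCont A stood apart for basal and squamous epithelial genes: the 15 markers of that type summed to 244 CPM in the highest Panc1 siCont library, which was A, and to 148 CPM in the lowest. KRT5, a basal keratin, measured 60.3, 21.7 and 22.1 CPM in Panc1 siCont A, B and C. The part of that library in any result was not tested, and values without it stand beside results for several genes that it held high.

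**Figure D1:**
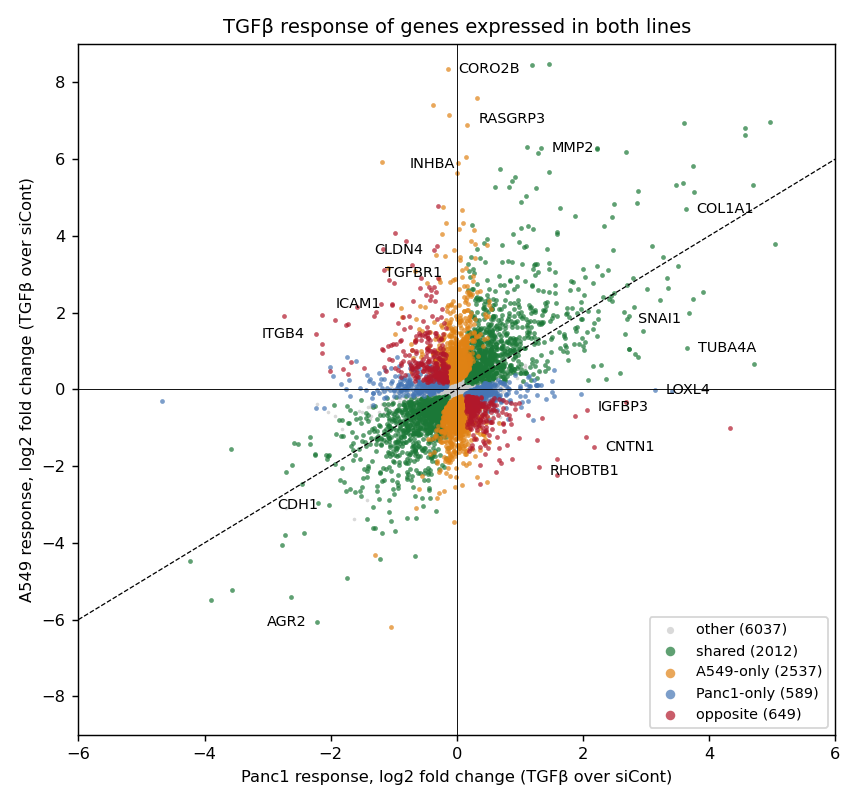
Each point is 1 of the 11824 genes expressed in both lines, placed by its log2 fold change with TGFβ in Panc1 (horizontal axis) and in A549 (vertical axis) and coloured by class; the dashed line marks equal responses. The cloud is taller than it is wide, with a standard deviation of 0.828 in A549 and 0.477 in Panc1, and 649 opposite genes lie toward the upper left and lower right corners.

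The responses of the lines differed for 5237 genes, 35.6% of those tested, at an adjusted p under 0.05 in edgeR's quasi-likelihood test. Of these, 2871 (19.5% of tested) had a response that was higher in Panc1 and 2366 (16.1%) one that was lower in Panc1. That split of 54.8% higher depended on the scaling of the libraries. It was 49.8% with DESeq2's size factors, 47.0% with TMM factors computed within each line, and 40.2 to 42.0% when any 1 Panc1 library was left out. The median difference over genes expressed in both lines moved with it, from 0.062 as tested to between −0.042 and −0.032 without 1 Panc1 library, so small differences are to be read relative to a shift of that size. In these bulk libraries, fewer cells making a transcript and less of it per cell cannot be told apart. Differences of at least 2-fold numbered 599 higher and 936 lower in Panc1.

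TGFβ changed more genes, and by more, in A549. In Panc1 2170 genes (14.7% of those tested) rose and 2344 (15.9%) fell, whereas in A549 3149 (21.4%) rose and 4235 (28.8%) fell. The excess of falls in A549 depended on the scaling: the counts were 3396 and 3855 with DESeq2's size factors and 3618 and 3533 with TMM within each line. Without any 1 Panc1 library the A549 rises outnumbered the falls, from 3675 against 3316 to 3876 against 3562. The median absolute log2 fold change over genes expressed in both lines was 0.151 in Panc1 and 0.309 in A549. Called changes of at least 2-fold numbered 382 rises and 517 falls in Panc1 and 1216 rises and 1095 falls in A549. A549 also had 84 genes that went from under 1 CPM to at least 5 CPM, against 11 in Panc1. Of those 84 genes, 57 were also under 1 CPM in Panc1 siCont, 35 rose in Panc1 too and 60 had a called difference. The reverse, from at least 5 CPM to under 1 CPM, was seen for 44 genes in A549 and 5 in Panc1. Fitted alone, the A549 libraries had a smaller common biological coefficient of variation, 0.0424 against 0.0593 in Panc1, and its part in these counts was not tested. Across the 11824 genes expressed in both lines the responses had a Pearson r of 0.457 and a Spearman rank correlation of 0.312; the responses share no library, and this is a description across genes, which are not independent replicates.

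Genes were then sorted by what each line did. A gene was called shared when both lines changed the same way, and opposite when both changed in opposite directions and the difference was called. It was called a response of 1 line only when that line's change and the difference were both called and the other line's change was not. There were 2194 shared genes (1069 rising, 1125 falling), 686 opposite genes, 643 Panc1-only genes and 2771 A549-only genes. A further 991 genes passed in Panc1 alone and 1733 in A549 alone without a called difference, so they are not counted as particular to a line. Among the shared genes the size of the response still differed for 955, and it was larger in A549 for 813 of them and larger in Panc1 for 142. Of the 686 opposite genes, 352 rose in Panc1 and fell in A549 and 334 did the reverse, and the A549 change was the larger in 518.

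Promoter sequences are shown for 1 gene of each class, so that the letters next to a start can be read beside the response of each class. The motifs searched were the SMAD box CAGAC, the palindromic SMAD element GTCTAGAC, the AP-1 site TGANTCA, the E-box CAGGTG read by SNAI and ZEB factors, the SP and KLF box GGGCGG, and the TEAD site GGAATG. Both strands were searched, and no motif contains another. Each sequence is from RefSeq (build GRCh38.p14), runs from 250 bases before to 50 after the start, reads 5′ to 3′ on the gene's strand, and has matches to any of the 6 motifs in capitals. PMEPA1, a feedback inhibitor that rose in both lines, is shown at 1 of its 4 listed starts, chr20:57709966-57710265 on the minus strand. This start was picked and is not the first listed, which the class shares below use. The other genes shown have 1 listed start each. INHBA, which encodes the activin A subunit and rose in A549 only, lies at chr7:41703041-41703340 on the minus strand. LOXL4, a collagen crosslinking enzyme that rose in Panc1 only, lies at chr10:98268145-98268444 on the minus strand. CLDN4, a tight junction claudin that fell in Panc1 and rose in A549, lies at chr7:73830746-73831045 on the plus strand.
PMEPA1: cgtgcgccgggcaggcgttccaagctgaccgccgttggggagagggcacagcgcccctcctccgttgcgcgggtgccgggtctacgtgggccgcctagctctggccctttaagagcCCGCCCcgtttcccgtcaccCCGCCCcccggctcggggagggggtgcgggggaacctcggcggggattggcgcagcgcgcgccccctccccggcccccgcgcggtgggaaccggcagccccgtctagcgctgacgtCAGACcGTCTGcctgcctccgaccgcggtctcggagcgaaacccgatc
INHBA: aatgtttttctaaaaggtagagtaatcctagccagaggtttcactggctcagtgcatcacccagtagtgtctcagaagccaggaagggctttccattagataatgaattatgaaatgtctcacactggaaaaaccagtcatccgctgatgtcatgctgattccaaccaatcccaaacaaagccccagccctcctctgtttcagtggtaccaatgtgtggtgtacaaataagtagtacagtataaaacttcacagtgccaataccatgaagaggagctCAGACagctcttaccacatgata
LOXL4: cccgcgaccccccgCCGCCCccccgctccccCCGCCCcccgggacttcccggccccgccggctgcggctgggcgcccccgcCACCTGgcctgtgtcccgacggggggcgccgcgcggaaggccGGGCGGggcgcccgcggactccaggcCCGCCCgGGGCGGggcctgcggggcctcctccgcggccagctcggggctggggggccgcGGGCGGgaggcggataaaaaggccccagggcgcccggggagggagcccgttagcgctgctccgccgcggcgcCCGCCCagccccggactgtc
CLDN4: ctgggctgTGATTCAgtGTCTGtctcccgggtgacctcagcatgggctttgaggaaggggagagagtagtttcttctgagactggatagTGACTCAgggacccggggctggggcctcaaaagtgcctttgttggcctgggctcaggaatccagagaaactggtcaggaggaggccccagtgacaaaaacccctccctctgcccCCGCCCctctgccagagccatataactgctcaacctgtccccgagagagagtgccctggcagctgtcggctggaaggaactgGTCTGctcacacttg
At the start picked, PMEPA1 held 2 SMAD boxes, 1 base apart, after 2 SP and KLF boxes. INHBA held 1 SMAD box and none of the other motifs. LOXL4 held 7 SP and KLF boxes and 1 E-box and no SMAD box. CLDN4 held 2 AP-1 sites, 2 SMAD boxes and 1 SP and KLF box.

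Over all tested genes, 11168 matched a RefSeq promoter, taken at the first start listed. The SMAD box was found in 42.9% of these promoters and in 41.1 to 46.6% of those in each of the 8 directional classes, so its share hardly varied. The AP-1 site was in 4.65% of all promoters and in 8.73% (22 of 252) of those of opposite genes that fell in Panc1, and in 2.75% (7 of 255) of Panc1-only rising genes. The E-box was in 18.4% of all promoters, in 24.3% of shared falling genes and in 23.8% of Panc1-only falling genes, and in 16.1% of shared rising genes. The SP and KLF box was in 69.1% of all promoters and ranged from 65.4% in A549-only falling genes to 77.5% in A549-only rising genes. The TEAD site was in 10.8% of them, and the palindromic SMAD element in 0.152%. These are shares of windows that hold the letters and say nothing about binding.

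Known direct targets of TGFβ mostly changed in both lines, and most of the shared rises that differed were larger in A549. Of 32 tested members of a list of direct TGFβ targets, 26 rose in Panc1 and 26 rose in A549, 23 of them in both, and 5 fell in each line. The response differed for 27 of the 32, higher in Panc1 for 8 and lower for 19 (background 19.5% and 16.1%). A lower response in Panc1 is not always a smaller one. The 19 include ID2, which fell more in Panc1, and ID3, which fell in Panc1 and rose in A549. The median difference was −0.495 over the members expressed in both lines, beside 0.062 over all such genes. JUNB, an AP-1 subunit, measured 14.6, 17.5 and 16.9 CPM in Panc1 siCont and 93.9, 90.2 and 92.2 CPM with TGFβ. In A549 it measured 73.5 and 83.8 CPM in siCont and 437 and 464 CPM with TGFβ. Its log2 fold changes were 2.50 ± 0.075 (SE) in Panc1 and 2.52 ± 0.078 in A549, and the difference was −0.023 ± 0.11 (adjusted p = 0.917), and it changed sign without A549 siCont A (0.089) or A549 TGFβ B (0.030). JUNB stood lower in Panc1 than in A549 in both conditions, with no overlap. PMEPA1 rose from 179, 182 and 170.5 CPM to 970.5, 985 and 1012 CPM in Panc1. In A549 it rose from 206 and 194 CPM to 2522 and 2406 CPM, and the difference of −1.14 ± 0.084 was called (adjusted p = 4.45e-12). PMEPA1 thus started at 170.5 to 206 CPM in both lines and ended higher in every A549 library. CTGF, a secreted matricellular protein, rose 3.68-fold in Panc1 and 22.8-fold in A549 (difference −2.63 ± 0.12, adjusted p = 2.51e-13). SPHK1, a sphingosine kinase, rose 2.13-fold and 13.3-fold (difference −2.64 ± 0.2). IGFBP3, an insulin-like growth factor binding protein, moved against the list. It rose 4.19-fold in Panc1, from 18.4, 15.7 and 14.1 CPM to 66.0, 66.1 and 69.7 CPM. In A549 it fell 1.46-fold, from 1826 and 1882 CPM to 1284 and 1252 CPM. The A549 level stayed above the Panc1 level in every library.

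KLF10, itself a TGFβ-induced zinc-finger factor, rose in both lines, by 0.52 ± 0.056 (SE) in Panc1 and 0.66 ± 0.071 in A549, and the difference of −0.13 ± 0.09 was not called (adjusted p = 0.276). Without Panc1 siCont C it was −0.26 and without Panc1 TGFβ C −0.28, both called, at adjusted p = 0.0187 and 0.0198; without the other 4 Panc1 libraries, 1 at a time, it lay between −0.23 and −0.20 and was not called. KLF10 measured 139, 136 and 129 CPM in Panc1 siCont, 191, 186 and 205 CPM in Panc1 TGFβ, 113 and 108 CPM in A549 siCont and 175 and 174 CPM in A549 TGFβ. SMAD7 rose by 1.22 ± 0.092 in Panc1 and 1.47 ± 0.093 in A549, with a difference of −0.25 ± 0.13 (adjusted p = 0.145). That difference was called without Panc1 siCont A (−0.36), Panc1 siCont B (−0.39), Panc1 TGFβ A (−0.38) or Panc1 TGFβ B (−0.37). For neither gene does the missing call show equal responses.

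By the smaller of the responses in the lines, the shared genes with the largest rises that both lines expressed were COL22A1, a collagen of tissue junctions, PLXNA4, a semaphorin receptor, FGF1, a growth factor, SLN, a small regulator of the calcium pump, BEAN1 and KANK4, an actin regulator. All 6 averaged under 1.4 CPM in both siCont groups, so they were close to silent before TGFβ. COL22A1 measured 0.293, 0.313 and 0.0660 CPM in Panc1 siCont and 7.51, 6.28 and 7.32 CPM with TGFβ. In A549 it went from 1.11 and 1.33 CPM to 151 and 156 CPM. PLXNA4 rose by 4.58 ± 0.27 (SE) in Panc1, and in A549 it had 3 counts over the siCont libraries and 252 over the TGFβ libraries. That A549 ratio was 120, with an exact 95% counting interval of 40.7 to 588. KANK4 rose by 3.74 ± 0.27 in Panc1 and 5.82 ± 0.41 in A549. The differences of COL22A1 (−2.01 ± 0.61), PLXNA4 (−2.23 ± 0.78) and KANK4 (−2.08 ± 0.72) were called, but each lost its call without some single libraries. For COL22A1 these were Panc1 siCont A (adjusted p = 0.0731) and B (0.0848). For PLXNA4 they were Panc1 siCont A (0.0661), Panc1 siCont C (0.0561) and A549 siCont A (0.175). For KANK4 they were Panc1 siCont C (0.179), A549 siCont A (0.177) and B (0.058), and A549 TGFβ A (0.0543).

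The largest shared falls included MUC5B, INHBB, BCAS1 and ZDHHC8P1. MUC5B, a gel-forming airway mucin, measured 1036 and 1033 CPM in A549 siCont and 20.6 and 25.7 CPM with TGFβ. In Panc1, where it was at a few CPM or less, it went from 2.56, 0.939 and 2.24 CPM to 0.144, 0.0795 and 0.136 CPM. INHBB, an activin beta subunit, fell from 49.2, 58.2 and 57.3 CPM to 6.93, 7.39 and 9.62 CPM in Panc1. In A549 INHBB fell from 186 and 183 CPM to 11.5 and 10.4 CPM, which was the steeper fall (difference 1.29 ± 0.17, adjusted p = 4.54e-07). BCAS1 fell 6.18-fold in Panc1 and 42.2-fold in A549 (difference 2.77 ± 0.5, adjusted p = 6.61e-05), and the pseudogene ZDHHC8P1 fell 6.58-fold and 13.9-fold.

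**Figure D2:**
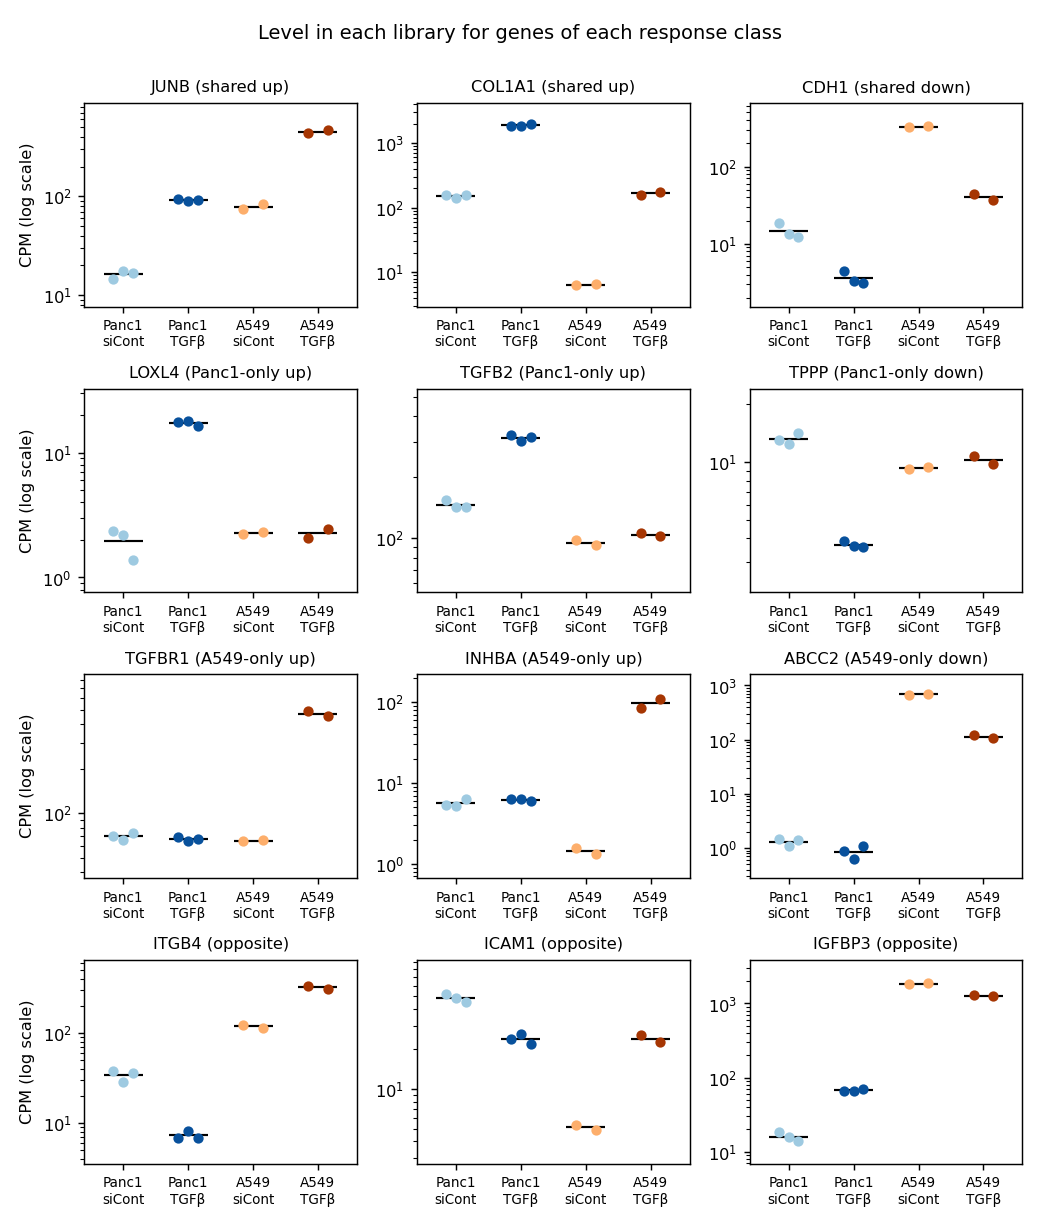
CPM on a log scale for 12 genes, 1 point per library and a line at the group mean, for siCont and TGFβ of Panc1 (n = 3 each) and A549 (n = 2 each). JUNB, COL1A1 and CDH1 moved together in both lines, LOXL4, TGFB2 and TPPP in Panc1 only, TGFBR1, INHBA and ABCC2 in A549 only, and ITGB4, ICAM1 and IGFBP3 in opposite directions.

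The pathway's own components divided between the classes. Of 27 tested ligands, receptors and binding proteins, 11 rose and 5 fell in Panc1, 14 rose and 7 fell in A549, and the response differed for 19, higher in Panc1 for 8 and lower for 11. Over all genes tested, 14.7% rose and 15.9% fell in Panc1, and 21.4% rose and 28.8% fell in A549. The response was higher in Panc1 for 19.5% of them and lower for 16.1%. The falls in this list lie near those shares, which are the background for the other gene lists as well. TGFB2, a TGFβ ligand, rose from 155, 142 and 143 CPM to 322, 303 and 315 CPM in Panc1. In A549 it measured 97.6 and 92.1 CPM and 106 and 102 CPM, and the difference was 0.96 ± 0.092 (adjusted p = 1.18e-09). INHBA measured 5.35, 5.17 and 6.27 CPM in Panc1 siCont and 6.28, 6.36 and 6.03 CPM with TGFβ. In A549 it went from 1.55 and 1.33 CPM to 85.2 and 111 CPM, a 66.5-fold rise, so A549 began below Panc1 and ended above it in every library. The activin subunits INHBA and INHBB therefore moved in opposite directions within A549. BMP2, a bone morphogenetic protein, went from 2.37 and 1.87 CPM to 54.1 and 56.6 CPM in A549 and stayed at or under 1.41 CPM in every Panc1 library. BMP7 changed by −0.41 ± 0.12 in Panc1 and by 2.58 ± 0.29 in A549 (difference −2.99 ± 0.32, adjusted p = 7.99e-09). TGFB1 rose in both lines, by 0.74 ± 0.058 and 0.62 ± 0.07, with a difference of 0.11 ± 0.09 (adjusted p = 0.362) that fell to −0.0048 without Panc1 siCont B and −0.0081 without Panc1 TGFβ B.

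The receptors diverged. TGFBR1, the kinase that phosphorylates SMAD2 and SMAD3, stood at nearly the same level without TGFβ, with 70.5, 66.2 and 73.2 CPM in Panc1 siCont and 64.9 and 66.3 CPM in A549 siCont. With TGFβ it measured 68.9, 65.3 and 67.5 CPM in Panc1 and 491 and 452 CPM in A549. The difference was −2.91 ± 0.095 (SE, adjusted p = 4.93e-20). TGFBR2, the ligand-binding receptor, rose slightly in Panc1, from 302, 304 and 317 CPM to 346, 343 and 339 CPM. In A549 TGFBR2 fell from 341 and 342 CPM to 182 and 164 CPM. The difference of 1.13 ± 0.085 was called (adjusted p = 7.74e-12), whereas in the libraries labelled siKLF10 it was 0.19. LTBP2, which binds latent TGFβ, rose in both lines and more in A549 (difference −1.16 ± 0.099), and LTBP1 rose in A549 only (difference −0.70 ± 0.1).

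Of 22 tested SMADs and feedback inhibitors, 11 rose and 5 fell in Panc1, 14 rose and 3 fell in A549, and the response was higher in Panc1 for 6 and lower for 8. Without Panc1 TGFβ A the first count was 3. SMAD3, a signalling SMAD, fell from 804, 789 and 846 CPM to 606, 615 and 602 CPM in Panc1 and measured 582 and 568 CPM and 537 and 522 CPM in A549. Its difference of −0.30 ± 0.081 had the opposite sign, 0.68, in the libraries labelled siKLF10. SMAD9, a BMP-type SMAD, fell 1.44-fold in Panc1 and 4.55-fold in A549 (difference 1.66 ± 0.33, adjusted p = 0.000173). BAMBI, a decoy receptor, fell in Panc1, from 2.20, 1.02 and 1.05 CPM to 0.578, 0.716 and 0.271 CPM, and rose from 33.3 and 31.1 CPM to 47.9 and 43.0 CPM in A549 (difference −1.96 ± 0.39, or −1.61 without Panc1 siCont A). FST, which encodes the activin antagonist follistatin, rose in A549 from 0.518 and 0.356 CPM to 2.06 and 1.59 CPM and measured 4.20 to 5.05 CPM in all 6 Panc1 libraries. GREM1, a BMP antagonist, rose to 2.06 and 2.02 CPM in A549, and its difference of −2.98 ± 0.89 lost its call without A549 siCont B (−2.44, adjusted p = 0.0581). ID2 and ID3 encode inhibitors of basic helix-loop-helix factors. ID2 changed by −2.58 ± 0.14 in Panc1 and −1.40 ± 0.1 in A549 (difference −1.18 ± 0.18). ID3 fell from 58.6, 60.7 and 59.1 CPM to 15.02, 13.0 and 16.1 CPM in Panc1 and rose from 242 and 233 CPM to 319 and 346 CPM in A549. ID3 thus moved apart between the lines (difference −2.49 ± 0.1, adjusted p = 1.56e-17), while its paralog fell in both.

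**Figure D3:**
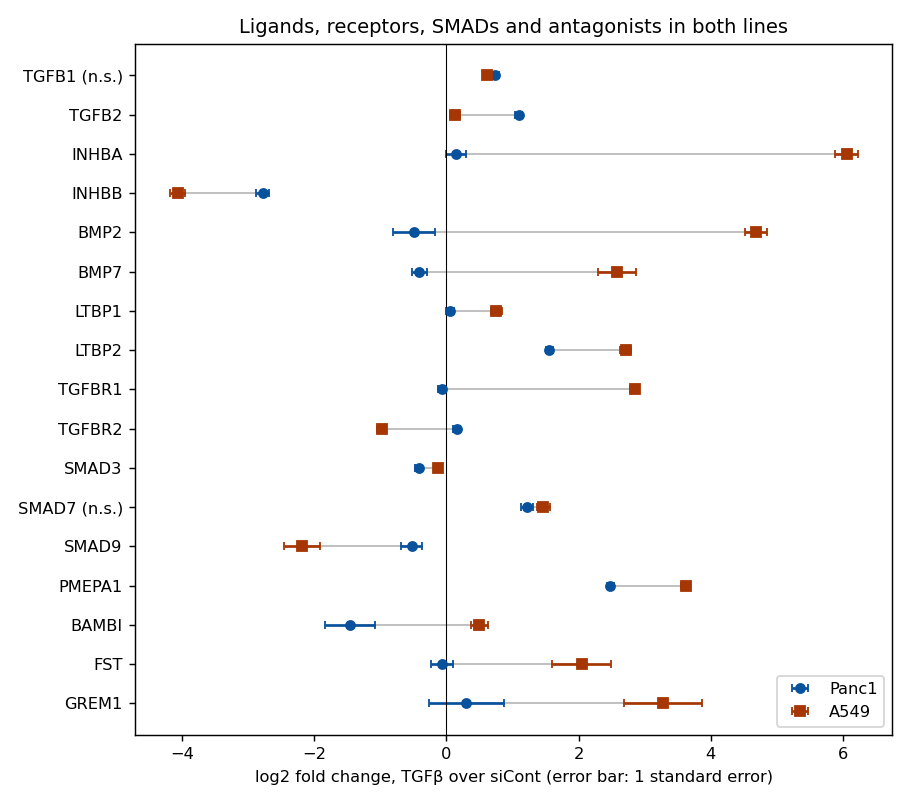
Log2 fold change with TGFβ (horizontal axis, bars of 1 standard error) in Panc1 (circles) and A549 (squares) for 17 ligands, binding proteins, receptors, SMADs and antagonists; n.s. marks genes whose difference was not called. INHBA, BMP2, BMP7, TGFBR1, FST and GREM1 lie far to the right in A549 and near 0 or below in Panc1, and TGFB2 the other way round.

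Of 28 tested mesenchymal and EMT genes, 12 rose in both lines, and where the responses differed that of A549 was usually the larger. In all 14 rose and 5 fell in Panc1, 17 rose and 7 fell in A549 (4 without A549 siCont A), and the difference was called for 20, lower in Panc1 for 15 and higher for 5. The median response of those expressed in both lines was 0.532 in Panc1 and 1.49 in A549. SNAI1 rose from 7.25, 7.44 and 6.86 CPM to 44.4, 46.3 and 49.5 CPM in Panc1 and from 6.22 and 4.09 CPM to 18.5 and 18.8 CPM in A549. The groups did not overlap within either line, and the rise was larger in Panc1 (difference 0.88 ± 0.2, adjusted p = 0.000895). Without A549 siCont A it was 0.54 and not called (adjusted p = 0.103). SNAI2 went the other way, with 7.98, 5.95 and 6.66 CPM in Panc1 siCont and 26.5, 20.5 and 25.2 CPM with TGFβ. In A549 SNAI2 measured 0.815 and 0.623 CPM and 5.70 and 4.62 CPM, and the difference was −1.02 ± 0.39 (adjusted p = 0.0403). It was not called without A549 siCont A, A549 siCont B or A549 TGFβ A (adjusted p = 0.096, 0.194 and 0.199). DESeq2 gave it an adjusted p of 0.0543. In the libraries labelled siKLF10 the SNAI1 and SNAI2 differences were 1.82 and −1.95. ZEB1 rose by 0.53 ± 0.057 in Panc1 and 0.99 ± 0.091 in A549 (difference −0.46 ± 0.11, adjusted p = 0.00124).

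CDH2, which encodes N-cadherin, started higher in Panc1, at 149.6, 152 and 136 CPM against 59.2 and 53.01 CPM in A549. With TGFβ it reached 212, 208 and 232 CPM in Panc1 and 206 and 192 CPM in A549, so the lines came close to one level (difference of the responses −1.25 ± 0.1, adjusted p = 3.57e-11). VIM, the mesenchymal intermediate filament vimentin, rose by 0.49 ± 0.059 in Panc1 and 1.19 ± 0.074 in A549 (difference −0.70 ± 0.094, adjusted p = 6.38e-07), and in the libraries labelled siKLF10 the difference was −0.065. FN1, fibronectin, measured 40.2, 31.6 and 42.9 CPM in Panc1 siCont and 257, 252 and 214 CPM with TGFβ. In A549 it rose from 1282 and 1348 CPM to 5625 and 5078 CPM, and the fold was larger in Panc1 (difference 0.63 ± 0.15, adjusted p = 0.00443). Without Panc1 siCont B the FN1 difference was 0.41, and in the libraries labelled siKLF10 it was −0.22. WNT5B, a noncanonical WNT ligand, rose 1.61-fold in Panc1 and 53.5-fold in A549, where it started at 0.741 and 0.623 CPM (difference −5.05 ± 0.23). MMP2, a gelatinase, rose from 204, 203 and 224 CPM to 527, 559 and 506 CPM in Panc1. In A549 MMP2 rose from 7.48 and 6.76 CPM to 566 and 548.9 CPM, ending at the Panc1 level (difference −4.95 ± 0.12, adjusted p = 1.56e-23). CDH11, a mesenchymal cadherin, went from 1.26 and 1.601 CPM to 48.9 and 52.4 CPM in A549 and stayed under 0.3 CPM in Panc1.

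Matrix genes rose in most cases. Of 41 tested, 27 rose in Panc1 and 28 in A549, 22 in both, and the difference was called lower in Panc1 for 18 and higher for 10. COL1A1 rose from 157, 142 and 157 CPM to 1824, 1847 and 1959 CPM in Panc1 and from 6.30 and 6.58 CPM to 159 and 174 CPM in A549. SPARC, a secreted matrix glycoprotein, measured 4.54 to 6.71 CPM in all Panc1 libraries and rose from 3.41 and 5.78 CPM to 79.3 and 81.1 CPM in A549 (difference −3.87 ± 0.23, adjusted p = 2.69e-14). THBS1, which can activate latent TGFβ, rose 1.35-fold in Panc1 and 14.1-fold in A549. LOXL4 was the exception in the crosslinking group. It rose from 2.34, 2.19 and 1.39 CPM to 17.5, 17.9 and 16.3 CPM in Panc1 and measured 2.22 and 2.31 CPM and 2.06 and 2.45 CPM in A549 (difference 3.16 ± 0.35, adjusted p = 2.61e-08). LOX, of the same enzyme family, rose in both lines and more in A549 (difference −1.75 ± 0.16). Fibroblast markers moved with these results: their sum over 8 genes ranged from 61.0 to 64.2 CPM in Panc1 siCont and 99.8 to 103 CPM with TGFβ, and from 2.76 to 3.78 CPM in A549 siCont and 19.2 to 21.0 CPM with TGFβ. COL3A1 and COL6A3 are among these 8 markers and are themselves matrix genes; DCN did not exceed 0.295 CPM in any library.

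Proteases and the plasminogen system differed more than any other list by median difference among the 19 lists. Of 20 tested, 9 rose and 4 fell in Panc1, 17 rose and 1 fell in A549, and the response was lower in Panc1 for 13. The median difference was −1.79 over the members expressed in both lines. MMP1, an interstitial collagenase, measured 2.97 to 5.80 CPM in the 6 Panc1 libraries and rose from 0.296 and 0.356 CPM to 67.3 and 61.2 CPM in A549. SERPINE2, a protease inhibitor, rose from 17.2 and 16.3 CPM to 1030 and 970.3 CPM in A549 and measured 16.8, 7.83 and 9.10 CPM and 10.8, 10.1 and 13.2 CPM in Panc1. TIMP3, a metalloproteinase inhibitor, rose from 0.222 and 0.267 CPM to 16.7 and 13.4 CPM in A549 (difference −7.10 ± 1.1, adjusted p = 0.00321). In Panc1 it averaged 8.84 CPM in siCont and 3.92 CPM with TGFβ, a log2 fold change of −1.185 that was not called. The Panc1 siCont libraries A, B and C had TIMP3 at 15.2, 5.48 and 5.87 CPM, the same library standing apart, and without library A the difference was −6.57. For SERPINE2, also high in that library, it was −5.57 without it. PLAU, the urokinase, fell slightly in Panc1 (−0.22 ± 0.058) and rose in A549 (1.44 ± 0.076). PLAT, the tissue-type activator, fell from 4.47, 1.72 and 1.58 CPM to 0.578, 1.03 and 0.949 CPM in Panc1 and rose from 3.48 and 3.65 CPM to 15.7 and 15.7 CPM in A549. Without Panc1 siCont A its difference was −3.19 (adjusted p = 5.18e-09).

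The epithelial side of the transition was shared in part. Of 40 tested epithelial junction and keratin genes, 29 fell in Panc1 and 17 in A549, 16 in both, and the difference was called for 16, lower in Panc1 for 13 and higher for 3. Without Panc1 siCont A, 26 of 39 tested fell in Panc1 and the difference was lower for 15 and higher for 4. The sum of the basal and squamous markers, led by the library that stood apart, was 148 to 244 CPM in Panc1 siCont and 107 to 115 CPM with TGFβ. In A549 that sum was 146 to 150 CPM and 171 to 186 CPM. Most of the A549 siCont sum came from 2 of the markers, SFN (72.5 and 74.4 CPM) and DSC3 (60.4 and 62.5 CPM). KRT5 did not exceed 0.0741 CPM there. SFN measured 78.2 to 79.3 CPM in Panc1 siCont, so similar sums do not show a similar content of basal genes. The part of basal or squamous cells in these results was not tested. CDH1, which encodes E-cadherin, fell from 18.6, 13.5 and 12.4 CPM to 4.40, 3.34 and 3.12 CPM in Panc1. In A549 it fell from 327 and 329.6 CPM to 43.5 and 36.8 CPM, by more (difference 0.99 ± 0.23, adjusted p = 0.0026), and stayed above every Panc1 library. In the libraries labelled siKLF10 the CDH1 difference was 0.31 and not called (adjusted p = 0.302). KRT8 and KRT18, a simple-epithelial keratin pair, fell in both lines and further in A549 (differences 0.59 ± 0.096 and 0.76 ± 0.099). Some members with an adhesive role, such as CLDN4 and ITGB4, went against the list in A549. CLDN4 fell from 15.9, 17.8 and 20.1 CPM to 13.7, 15.03 and 13.4 CPM in Panc1 and rose from 3.56 and 3.83 CPM to 47.0 and 43.9 CPM in A549. ITGB4, an integrin subunit of hemidesmosomes, fell from 38.1, 28.8 and 36.1 CPM to 6.93, 8.11 and 6.91 CPM in Panc1. In A549 ITGB4 rose from 123 and 114 CPM to 332 and 309 CPM (difference −3.67 ± 0.14, adjusted p = 2.74e-17), and no library of one line's TGFβ group reached the other's. KRT7, a simple keratin, was called Panc1-only with 26.4, 10.4 and 11.1 CPM in siCont and 5.27, 6.36 and 2.85 CPM with TGFβ. In A549 it measured 2243 and 2224 CPM and 3857 and 4113 CPM, a change that was not called (adjusted p = 0.0686). Without Panc1 siCont A, where the basal genes stood high, the KRT7 difference was −2.12 (adjusted p = 7.24e-05), and in the libraries labelled siKLF10 it was −0.56.

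Actin and contractile genes rose in both lines, 18 of 26 tested in Panc1 and 20 in A549, with the response lower in Panc1 for 13 and higher for 6. TAGLN, an actin-binding protein of smooth muscle, rose 2.93-fold in Panc1 and 8.30-fold in A549 (difference −1.50 ± 0.21), with a difference of −0.15 in the libraries labelled siKLF10. TUBA4A, an alpha-tubulin, rose more in Panc1, from 8.20, 5.40 and 5.67 CPM to 87.7, 85.5 and 70.3 CPM, against 214 and 205 CPM to 447 and 436 CPM in A549 (difference 2.58 ± 0.16, adjusted p = 1.88e-10). MYLK, the myosin light chain kinase, fell in both lines and further in A549 (difference 1.69 ± 0.11).

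The opposite genes were given in each direction by the smaller of the responses in the lines, among genes expressed in both lines. Those that rose in Panc1 and fell in A549 were led by CNTN1, a neural adhesion molecule, and RHOBTB1, an atypical small GTPase. F2RL2, a thrombin receptor, CXXC4, an inhibitor of WNT signalling, STEAP1 and RASSF9 followed. CNTN1 rose from 3.002, 2.35 and 2.11 CPM to 13.3, 10.0 and 10.3 CPM in Panc1 and fell from 507 and 510.4 CPM to 189 and 169.7 CPM in A549. RHOBTB1 rose from 9.23, 9.79 and 8.44 CPM to 23.2, 20.1 and 24.2 CPM in Panc1 and fell from 109.6 and 102 CPM to 26.6 and 25.1 CPM in A549, so the lines ended at similar levels. F2RL2 rose 2.42-fold and fell 2.49-fold, and STEAP1 rose 1.97-fold and fell 2.42-fold. All 6 of these genes averaged more in A549 siCont than in Panc1 siCont, and all 6 differences had the same sign in the libraries labelled siKLF10 (3.49, 2.50, 1.41, 2.40, 1.89 and 1.44). That siCont level enters the response itself, and so is no independent support.

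Those that fell in Panc1 and rose in A549 were led by PTGES, which makes prostaglandin E2, TINAGL1, a matrix glycoprotein, BHLHE41, a circadian repressor, LCP1, an actin bundler, and PLAT, followed by ITGB4, STON2, an endocytic adaptor, and ACSL5, an acyl-CoA synthetase. BHLHE41 fell from 102, 95.1 and 86.0 CPM to 27.1, 24.5 and 33.5 CPM in Panc1 and rose from 1.33 and 1.51 CPM to 5.31 and 3.75 CPM in A549. PTGES fell from 3.15, 0.861 and 1.52 CPM to 0.650, 0.238 and 0.339 CPM in Panc1 and rose from 21.6 and 21.97 CPM to 84.4 and 83.7 CPM in A549. In Panc1 siCont, PTGES, TINAGL1, LCP1, PLAT and STON2 were each highest in library A, the library that stood apart. Without it the differences were −3.58, −4.12, −2.79, −3.19 and −2.91, all still called. In the libraries labelled siKLF10 they were −2.85, −1.90, −0.63, −0.97 and −2.96.

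Inflammatory and immediate early genes moved apart. Of 20 tested inflammatory and NF-κB genes, 9 fell and 3 rose in Panc1, 11 rose and 3 fell in A549, and the response was lower in Panc1 for 15 and higher for 1, with a median difference of −1.59. ICAM1, a leukocyte adhesion molecule, fell from 51.9, 48.3 and 45.2 CPM to 23.9, 26.0 and 21.8 CPM in Panc1 and rose from 5.33 and 4.89 CPM to 25.4 and 22.4 CPM in A549. The lines did not overlap without TGFβ and did with it. IL1A and IL1B, the interleukin-1 cytokines, went from 0.222 and 0.267 CPM to 23.0 and 23.9 CPM and from 0.518 and 0.445 CPM to 7.07 and 6.35 CPM in A549, and neither exceeded 0.805 CPM in Panc1. IL8, a neutrophil chemokine, rose from 68.1 and 68.0 CPM to 297 and 292 CPM in A549 and measured 7.76, 2.27 and 3.69 CPM and 3.25, 2.23 and 1.97 CPM in Panc1. Without Panc1 siCont A its difference of −3.00 ± 0.52 was −2.51. IL11, a SMAD-responsive cytokine, rose in both lines, 7.30-fold in Panc1 and 36.1-fold in A549 (difference −2.31 ± 0.2). Of the 7 haematopoietic markers, CD3E was at 0 in all 10 libraries, while CD68, a lysosomal gene that made up most of their sum, measured 260 to 281 CPM in Panc1 siCont and 154 to 170 CPM with TGFβ. In A549 CD68 measured 24.3 and 24.7 CPM in siCont and 48.4 and 51.2 CPM with TGFβ.

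Of 21 immediate early and AP-1 genes, 8 fell and 4 rose in Panc1, 13 rose and 8 fell in A549, and the response was lower in Panc1 for 11 and higher for 3. The A549 falls numbered 5 in place of 8 without Panc1 TGFβ A, Panc1 TGFβ C, A549 siCont B or A549 TGFβ B. The count of 3 was 1 without Panc1 siCont B or C, any 1 Panc1 TGFβ library, A549 siCont A or A549 TGFβ A, and 1 to 2 with other scalings. FOSB, an AP-1 subunit, rose from 0.148 and 0.267 CPM to 9.53 and 11.7 CPM in A549 and measured 3.69 to 5.01 CPM in the Panc1 libraries (difference −5.63 ± 0.44, adjusted p = 1.83e-11). EGR1, a serum-response factor target, fell from 14.8, 9.55 and 12.5 CPM to 7.58, 7.95 and 7.38 CPM in Panc1 and rose from 2.22 and 2.31 CPM to 10.1 and 12.7 CPM in A549. Both genes reached A549 TGFβ levels near or above the Panc1 siCont levels. Of 21 p53 targets, 12 rose in A549 against 4 in Panc1, and the response was lower in Panc1 for 12 and higher for 1; the first of these counts ranged from 9 to 16 when 1 library was left out. PLK3, a polo-like kinase, and TNFRSF10B, a death receptor, rose in A549 only (differences −1.44 ± 0.24 and −0.99 ± 0.1). DDB2, a DNA damage sensor, and TP53I3 rose in both lines and more in A549 (differences −1.25 ± 0.1 and −1.02 ± 0.1), as did CDKN1A, the p21 cell-cycle inhibitor (−0.83 ± 0.1).

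Detoxification genes fell in A549 and little in Panc1. Of 23 tested NRF2 target and detoxification genes, 21 fell and 1 rose in A549, 7 fell and 4 rose in Panc1, and the difference was higher in Panc1 for 19 and lower for none, against 19.5% of all genes tested. The count of 19 was 16 to 21 when 1 library was left out. The median response of the 20 members expressed in both lines was −1.44 in A549 and −0.018 in Panc1. AKR1B10, an aldo-keto reductase, fell from 4700 and 4369 CPM to 473 and 393 CPM in A549 and did not exceed 0.875 CPM in Panc1. AKR1C3, which like AKR1B10 has close paralogs that make its counts uncertain, fell from 1408 and 1360 CPM to 293 and 273 CPM in A549 and measured 0.548 to 1.76 CPM in Panc1. ABCC2, an organic anion exporter, fell from 668 and 705 CPM to 120.3 and 106 CPM in A549. NQO1, a quinone reductase, was expressed in both lines and fell in both, 1.36-fold in Panc1 and 3.04-fold in A549 (difference 1.16 ± 0.089, adjusted p = 1.29e-11). TXNRD1, thioredoxin reductase, did likewise (difference 0.76 ± 0.087). GCLM, a subunit of glutathione synthesis, fell in A549 only (difference 0.95 ± 0.12). Each of the 6 genes named stood higher in every A549 siCont library than in any Panc1 siCont library.

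Secreted hepatic-type and mucinous genes showed the same direction. Of 14 tested liver-like secreted proteins 13 fell in A549, and the response was higher in Panc1 for 7 and lower for none. Only 3 of the 14 were expressed in both lines. FGG, the fibrinogen gamma chain, fell from 456 and 511 CPM to 26.0 and 25.2 CPM in A549 and stayed under 1 CPM in Panc1. FGL1, a fibrinogen-like protein, fell from 66.4 and 70.7 CPM to 4.91 and 1.59 CPM in A549. TF, transferrin, fell from 11.9 and 15.4 CPM to 0.295 and 0.577 CPM in A549 and was near 0 in Panc1; its difference lost its call without Panc1 TGFβ A (adjusted p = 0.111). Of 11 mucin and secretory genes, 8 fell in A549 and 6 in Panc1, 4 of them expressed in both lines, and the response was higher in Panc1 for 4, or 2 without Panc1 TGFβ B or A549 TGFβ A. AGR2, a disulfide isomerase of secretory cells, fell from 480.3 and 499.8 CPM to 8.25 and 6.06 CPM in A549 and from 62.8, 62.7 and 52.2 CPM to 11.6, 11.4 and 15.04 CPM in Panc1 (difference 3.85 ± 0.18, adjusted p = 1.92e-13).

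Cell cycle, ribosomal, hypoxia, cholesterol and interferon genes gave smaller or mixed differences. Of 33 cell cycle genes, the response was higher in Panc1 for 13 and lower for 2. The first count was 10 with either other scaling and 7 to 14 when 1 library was left out, and it moved by over 1.5 times without Panc1 siCont A, Panc1 siCont B, Panc1 TGFβ B or Panc1 TGFβ C. PCNA, the replication clamp, rose by 0.17 ± 0.062 in Panc1 and fell by 0.83 ± 0.072 in A549. CDK1, the mitotic kinase, rose by 0.26 ± 0.057 and fell by 0.64 ± 0.076, and BUB1B, a spindle checkpoint kinase, rose by 0.28 ± 0.052 and fell by 0.44 ± 0.071. Their differences were 1.00 ± 0.095, 0.90 ± 0.095 and 0.72 ± 0.088. Of 21 ribosomal protein genes, whose many pseudogenes make counts uncertain, none passed in Panc1, though without Panc1 siCont C 7 fell and 1 rose there. In A549 17 fell, or 13 to 14 with other scalings and 9 to 11 without Panc1 siCont B, Panc1 TGFβ A, Panc1 TGFβ B or A549 TGFβ A. RPL10A, which had the largest difference of them, measured 135, 149 and 138 CPM and 154, 154 and 136 CPM in Panc1 and 235 and 256 CPM and 179 and 199 CPM in A549. The difference was higher in Panc1 for 7, or 4 to 5 with other scalings and 1 to 8 when 1 library was left out, each of the 6 Panc1 libraries lowering it by over 1.5 times. The hypoxia list had 7 higher and 4 lower of 20, the first count falling to between 3 and 6 when 1 library was left out, and by over 1.5 times without any 1 Panc1 library but siCont C. VEGFA, an angiogenic growth factor, rose 8.55-fold in A549 and 1.14-fold in Panc1 (difference −2.91 ± 0.1), whereas NDRG1, also hypoxia-induced, rose in Panc1 and fell in A549 (difference 1.33 ± 0.095). Of 25 cholesterol synthesis genes, 10 fell in Panc1 and 12 in A549, and the difference was higher in Panc1 for 5 and lower for 3, ranging from 3 to 6 and from 2 to 7 when 1 library was left out, by over 1.5 times without any 1 Panc1 library but TGFβ A, or without A549 siCont A. HMGCS1, which makes the precursor of mevalonate, fell 3.52-fold in A549 only, and TM7SF2, a sterol reductase, fell 3.55-fold in Panc1 and 1.75-fold in A549. Of 31 interferon-stimulated genes, 15 fell in Panc1 and 11 in A549, and the difference was higher in Panc1 for 7 and lower for 6. The A549 falls numbered 7 without A549 TGFβ A. The shares of the cholesterol and interferon lists called higher or lower lie near the 19.5% and 16.1% of all genes tested. IFITM3, an antiviral membrane protein, fell from 233, 235 and 246 CPM to 169, 164 and 154 CPM in Panc1 and from 5.70 and 5.16 CPM to 0.590 and 1.01 CPM in A549 (difference 2.27 ± 0.3). OASL, an oligoadenylate synthetase-like protein, rose in A549 from 0.963 and 0.978 CPM to 5.70 and 6.06 CPM and did not exceed 0.861 CPM in Panc1.

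**Figure D4:**
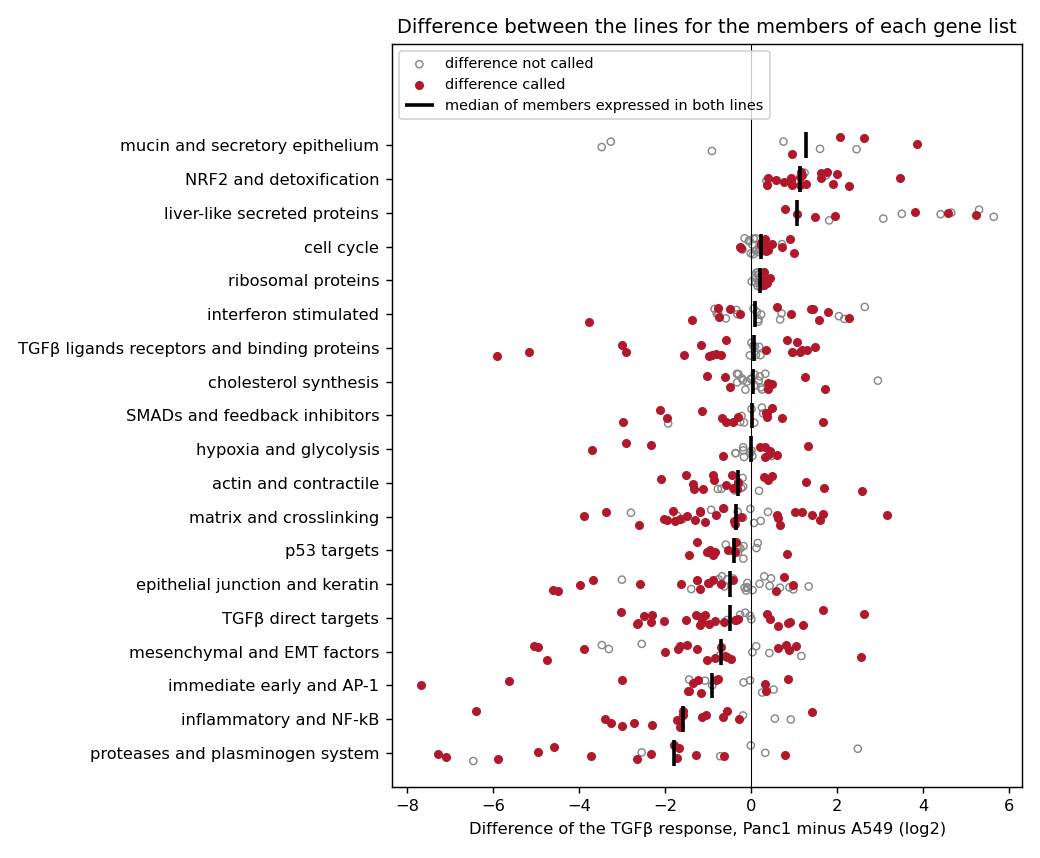
Difference of the response, Panc1 minus A549 on the log2 scale, for each tested member of 19 gene lists that at least 1 line expressed; filled points are called, open points are not, and black bars are medians over members expressed in both lines. The medians run from −1.79 for proteases to 1.28 for mucin and secretory genes, of which only 4 are expressed in both lines, and all called NRF2 and detoxification genes lie to the right of 0.

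Most line-only responses belonged to genes expressed in both lines. For A549-only genes this held for 2537 of 2771, and for Panc1-only genes for 589 of 643, beside 11824 of all 14716 genes tested. Both classes require a called difference, which was found for 41.1% of genes expressed in both lines and 7.13 to 17.4% of the others. The larger share in these classes therefore follows in part from their definition and is no separate result. The A549-only rises in genes that Panc1 expressed were led by CORO2B, an actin-binding coronin, NPTX1, a neuronal pentraxin, KIF26B, a kinesin, MMP1, TIMP3, RASGRP3, a Ras activator, INHBA and SERPINE2. TIMP3 was lower with TGFβ in Panc1, and its missing call there does not show that Panc1 did not respond. CORO2B measured 5.25 to 6.86 CPM in the Panc1 libraries and went from 0.148 and 0.267 CPM to 68.1 and 69.3 CPM in A549. NPTX1 went from 2.81 and 2.49 CPM to 447 and 465 CPM and RASGRP3 from 1.33 and 1.42 CPM to 169.5 and 161 CPM in A549. RASGRP3 measured 6.99 to 9.68 CPM in the Panc1 libraries. NPTX1 measured 0.794 to 1.47 CPM in Panc1. CORO2B and RASGRP3 thus began below Panc1 in A549 and ended above it, and NPTX1 was the higher in A549 throughout. Where Panc1 did not express the gene, IGFL1 had 3 counts over the A549 siCont libraries and 1680 over the TGFβ libraries, a ratio of 803 with an exact 95% counting interval of 274 to 3900. ATP8A2 had 0 and 247 counts, which is at least 118-fold higher against a floor of 3 counts over the group. TNFAIP6, a hyaluronan-binding protein, reached 72.2 and 75.0 CPM in A549 and had at most 0.0795 CPM in any Panc1 library. The fitted differences of ATP8A2 and TNFAIP6 lost their call without 1 Panc1 library each (siCont B and siCont A).

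A549-only falls in genes that Panc1 expressed were led by KRT4, a mucosal keratin, AQP3, an aquaglyceroporin, and AGMAT. KRT4 and AQP3 were also lower with TGFβ in Panc1, by log2 fold changes of −1.04 and −1.29 that were not called. For neither gene does the missing call show that Panc1 did not respond. KRT4 fell from 49.5 and 45.1 CPM to 0.884 and 0.289 CPM in A549, and in Panc1 it measured 5.79, 3.44 and 1.45 CPM in siCont and 2.53, 1.67 and 0.949 CPM with TGFβ. Its difference was 5.15 ± 1.1, or 5.61 without Panc1 siCont A. AQP3 fell from 347 and 301 CPM to 17.0 and 15.2 CPM in A549 and measured 31.1, 10.2 and 11.8 CPM and 8.74, 7.87 and 5.15 CPM in Panc1, where siCont A again stood apart. Without Panc1 siCont A its difference was 3.603. With all libraries the difference of 3.03 ± 0.76 lost its call without any 1 of 5 libraries, Panc1 TGFβ A or B, A549 siCont A, or A549 TGFβ A or B, with adjusted p = 0.0537 to 0.0753. AGMAT fell from 14.1 and 13.7 CPM to 3.44 and 2.02 CPM in A549 and measured 4.82 to 6.57 CPM in Panc1. Of genes that Panc1 did not express, DDC, which makes dopamine and serotonin, fell from 339 counts to 2 in A549, a ratio of 0.00846 with an exact 95% counting interval of 0.00102 to 0.0308. Its fitted difference lost its call without Panc1 TGFβ B.

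Panc1-only rises in genes that A549 expressed were led by LOXL4, LOC728431, CACNA1G, a calcium channel, and EYA2, a transcriptional coactivator. LOC728431 rose from 3.15, 2.27 and 2.31 CPM to 11.0, 9.86 and 9.55 CPM in Panc1 and measured 14.3 to 17.3 CPM in A549. EYA2 rose from 22.04, 21.9 and 21.6 CPM to 57.9, 59.7 and 57.7 CPM in Panc1 and measured 5.04 and 4.62 CPM and 4.32 and 3.75 CPM in A549. Panc1-only falls were led by KRT7, given above, TPPP, a tubulin polymerization protein, CRABP2, which carries retinoic acid, and GATA2. KRT7 was higher with TGFβ in A549, by a log2 fold change of 0.84 that was not called. For KRT7 the missing call does not show that A549 did not respond. TPPP fell from 13.0, 12.4 and 14.1 CPM to 3.90, 3.66 and 3.59 CPM in Panc1 and measured 9.18 to 10.7 CPM in A549. CRABP2 fell from 124, 128 and 113 CPM to 47.2, 47.3 and 60.2 CPM in Panc1, and A549 did not exceed 2.56 CPM. The difference was at least 2-fold for 44 of 329 Panc1-only rises and 105 of 314 Panc1-only falls, and for 390 of 1118 A549-only rises and 292 of 1653 A549-only falls.

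Starting levels were taken from the libraries labelled siKLF10 without TGFβ, because a gene's siCont level enters its response and would by construction relate to it. The gap was the log2 level in Panc1 minus that in A549, with 0.5 CPM added. It had a Pearson r of −0.179 and a Spearman rank correlation of −0.112 with the difference of the response over the 11824 genes expressed in both lines, a weak relation given as a description, with no p, across genes that share the same libraries. The genes were put in order of the gap and divided into 5 equal bins. Of the bin that stood highest in A549, 29.8% had a response higher in Panc1 and 17.3% one lower in Panc1. In the bin that stood highest in Panc1 the shares were 17.0% and 24.4%. The 17.0% was 10.6 to 11.2% without Panc1 siCont B or any 1 Panc1 TGFβ library. The 3 bins between them differed little, at 22.5 to 23.1% and at most 16.3%. The responses of A549 varied more over the bins than those of Panc1. A549 fell for 41.2% of genes in the first bin and 22.1% in the last, and it rose for 21.4% and 28.1%. In Panc1 falls went from 22.1% to 19.3% and rises from 16.6% to 20.4%. In each alternative processing and each leave-one-out fit, the share higher in Panc1 was larger in the first bin than in the last and the share lower in Panc1 was smaller.

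**Figure D5:**
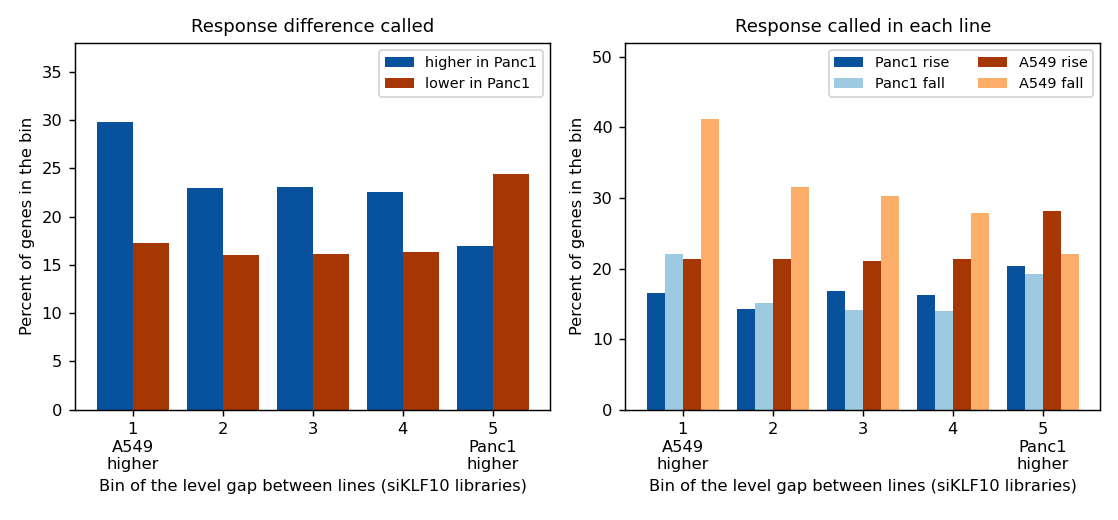
Genes expressed in both lines in 5 equal bins of the level gap between lines, from those standing higher in A549 (1) to those standing higher in Panc1 (5). Bars on the left give the percent of genes whose response was called higher (blue) or lower (brown) in Panc1; bars on the right give the percent called risen or fallen in each line, with A549 falls going from 41.2% to 22.1%.

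The classes differed modestly in their starting levels. Of 340 opposite genes that rose in Panc1, 185 (54.4%) stood higher in A549 without TGFβ, against 47.6% of all genes. Of 309 that fell in Panc1, 181 (58.6%) stood higher in Panc1, against 52.4%. Over both, the falling line was the higher one in 366 of 649, or 56.4%. With siCont levels in place of siKLF10 levels that share was 63.5%. Leaving out 1 library at a time moved it between 53.7% and 61.1%. Over all genes the lines were about as far apart with TGFβ as without. The standard deviation of the gap was 1.37 in siCont and 1.35 with TGFβ, and 1.37 and 1.38 in the libraries labelled siKLF10. In the libraries labelled siKLF10 the gap was smaller with TGFβ for 46.4% of all genes, for 51.4% of shared rising genes, and for 41.2% to 44.7% of genes in the 6 opposite and line-only classes.

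The contrast was measured a second time in the 10 libraries labelled siKLF10, which share none with the first. There the responses differed for 4974 of 14692 genes, or 33.9%. Of the 6267 genes of the classes that were tested in both sets, 5459 (87.1%) had a difference of the same sign, against 75.5% of all genes tested. Called in the same direction were 3398 (54.2%), against 31.8% of all genes tested. The opposite and line-only classes were defined in part by a called difference in the first set. The opposite classes repeated their sign most often, in 345 of 352 genes rising in Panc1 and 328 of 332 falling in Panc1. Fewer fell in the same class, 120 and 152 of these. Some genes described above had a called difference that repeated its sign there without a call. They include DDB2 (−0.32, adjusted p = 0.0539), CDKN1A (−0.11, 0.56), LTBP2 (−0.16, 0.36) and IFITM3 (1.25, 0.172). FST (−0.92, 0.0842), CDH11 (−2.87, 0.0808) and RPL10A (0.090, 0.648) did likewise. A change of sign between the sets cannot be told apart from an effect of the siRNA. Genes with such a change were picked after their values were seen. Among them COL4A1, a basement membrane collagen, went from −2.61 ± 0.29 to 0.60, VASH2, an angiogenesis regulator, from 1.37 ± 0.27 to −0.66, and ITGB6, an integrin that activates latent TGFβ, from −3.02 ± 0.64 to 0.48.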

How the data were processed

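Poly(A) RNA was sequenced with a directional kit, per the labels' protocols, from 10 siCont and TGFβ libraries and 10 libraries labelled siKLF10. The authors deposited whole-number counts of reads per gene. The submitters' processing notes name TopHat, Bowtie2, HTSeq 0.6.0, DESeq2 and build hg19, without roles. Whether HTSeq used strand is not stated in the labels or notes, so overlapping and antisense genes are uncertain. Summary lines of HTSeq that name no gene were dropped. Reads assigned to no gene were 33.6 to 36.9% in Panc1 and 59.2 to 59.9% in A549.

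Counts were filtered with filterByExpr (minimum count 10, minimum total 15), scaled by TMM and fitted with edgeR 4.0.16 in R 4.3.3. The robust quasi-likelihood test was run on 4 group means, which left 6 residual degrees of freedom. Benjamini-Hochberg adjustment ran over all 14716 genes and the threshold was 0.05. The common biological coefficient of variation was 0.0551. A floor of 3 counts equals 0.199 to 0.237 CPM in Panc1 and 0.223 to 0.438 CPM in A549. Intervals and floors cover counting error only. Replicates differed by more than sampling noise, so none was counted as 1 sample.

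The members and gene lists were chosen with earlier results of these data known. Always named were FN1, VIM, CDH1, CDH2, KLF10, SMAD7, ZEB1, SNAI1 and SNAI2. The rule also took the top 10 shared and opposite genes by the smaller response and the top 8 line-only genes by the difference, at 5 CPM or more in a responding line. It took up to 4 genes with a called difference per list, largest first, and fewer were printed. Other list members, among them JUNB, PMEPA1, TGFB1, TGFB2, TGFBR2, SMAD3, COL1A1, NQO1, ID2 and ID3, were named for their roles after their values were seen. Alternatives used DESeq2 1.42.0, other scalings, filters and thresholds, a replicate block, and each library left out in turn. The deposited tables of the authors' own comparisons were not used here. A few list members are not reported here.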

Additional observations from a re-analysis of the deposited data

Results flagged for a closer look

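The change with TGFβ differed between the lines, by the test of the difference itself, for 5237 genes. Among the genes named whatever their call, the difference (Panc1 minus A549, log2) passed that test for 7. It was positive for SNAI1 (0.88), CDH1 (0.99) and FN1 (0.63). For SNAI1 and FN1 this is a larger rise in Panc1, and for CDH1 a smaller fall. It was negative for SNAI2 (−1.02), ZEB1 (−0.46), CDH2 (−1.25) and VIM (−0.70), which rose in both lines and more in A549. KLF10 and SMAD7 did not pass.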

How the results depend on the processing

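Counts over all tested genes stayed within 1.5 times of those reported under every alternative run, except the 686 opposite genes, which numbered 433 in DESeq2's test and 314 at an adjusted p under 0.01. Smaller counts within gene lists moved further, among them the higher-in-Panc1 counts of the cell cycle, ribosomal, hypoxia and mucin lists (lowest 7, 1, 3 and 2 with 1 library left out). The share of opposite genes whose falling line stood higher was 56.4%, and 63.5% with siCont levels. The cause was not tested. With 1 library left out at a time, that share was 53.7 to 61.1%, the differing genes numbered 4241 to 5208 and the opposite genes 482 to 670. Of 154 named genes, 154 kept direction and call under either other scaling and without the filter, 152 in DESeq2's test and 144 at the stricter threshold. Small differences changed sign for JUNB (0.089 without A549 siCont A, 0.030 without A549 TGFβ B) and TGFB1 (−0.0048 without Panc1 siCont B, −0.0081 without Panc1 TGFβ B). Leaving out 1 library at a time moved them from −0.20 to 0.089 and from −0.0081 to 0.18, and neither was called in any fit. Estimating the spread within each line, chosen after seeing the data, gave 4185 genes in Panc1 and 7907 in A549.

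The letters did not pair the libraries: deviations of same-letter libraries correlated at −0.128, −0.0494 and −0.427 in Panc1 and −0.00468 in A549, and no Panc1 library correlated best with its own letter. A replicate block by letter gave 4755 differing genes, 3948 in Panc1, 6957 in A549, 1959 shared, 540 opposite, 554 Panc1-only and 2655 A549-only, and 5983 differing in the libraries labelled siKLF10. Of the named genes only KANK4 lost its call under it. The class counts use no expression floor. With a floor of 0.5 CPM in place of 1, both lines expressed 2617 A549-only and 610 Panc1-only genes, and the share of 56.4% was 56.0%. At that floor the median differences of the SMAD and hypoxia lists changed sign, from 0.012 to −0.075 and from 0.011 to −0.013. Genes with few counts in a line limit the differences given for them.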
